A study of Rattus norvegicus with 30 samples.

Results

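The unfolded protein response and the ATF4 response are described here through 33 genes of rat hepatocytes, chosen by name: every probe set of the array that the platform annotation gives to 1 of these genes alone, by its current or an older symbol, was taken as a member. Of the 33 genes, 32 had such a probe set, and Ern1, which encodes the stress sensor IRE1α, had none and was not measured. The 32 genes were read by 41 probe sets, 40 of which were bright enough to be tested, out of 18625 tested in all. The array names 14213 genes by such probe sets. Where a gene had several tested probe sets, the brightest stands for it. The genes fall into 14 chaperones and folding enzymes of the endoplasmic reticulum (ER), 3 genes of ER-associated degradation, 10 regulators and 6 genes of amino acid and folate metabolism or transport.

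The cells were frozen primary hepatocytes of male Sprague Dawley rats, cultured on collagen under Matrigel. On day 3 of culture they received diisononyl phthalate (DINP), a plasticiser, at 25 mM or 100 mM, or the vehicle alone, and RNA was taken after 24 or 48 h. The unit mM is that of the labels and could not be checked. All 6 groups, DINP 25 mM 24 h, DINP 100 mM 24 h, DINP 25 mM 48 h, DINP 100 mM 48 h, vehicle 24 h and vehicle 48 h, carried 1% DMSO. Each group holds 5 wells with 1 array each. The labels call the wells independent cultures but name no donor animals, so a p-value here covers how wells vary, which may be technical. The 5 arrays of a group are numbered in the order of the samples, and the number limits the precision.

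When folding in the ER falls behind, 3 sensors in its membrane respond. ATF6 and the IRE1α-XBP1 pair switch on chaperones, folding enzymes and the degradation machinery. PERK phosphorylates the initiation factor eIF2α, which slows protein synthesis while it favours translation of Atf4 mRNA. ATF4 then switches on genes of amino acid synthesis and import and of the stress regulators DDIT3 (CHOP), TRIB3 and CHAC1. Amino acid shortage reaches ATF4 through another eIF2α kinase, GCN2, without the chaperone branch, so the branches can be read apart. The liver secretes most plasma proteins and has a large ER, and hepatocytes carry much of this machinery without stress.

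The branches differ in the DNA elements that their factors bind, and the stretches below show matches to these elements in some of the genes. The matches divide the chaperone genes from the ATF4 genes only in part. Promoter sequences of RefSeq (build GRCr8), from 250 bases before to 50 bases after the start of each gene, were found for 28 of the 33 genes. Only the 250 bases before the start were searched for elements. No entry was matched for Manf, Pdia3, Pdia6, Ern1 and Atf3. The ER stress response element, which is CCAAT, 9 bases of any kind and CCACG on either strand, lay in 6 of the 11 chaperone genes with a promoter (Hspa5, Hsp90b1, Creld2, Calr, Canx and Dnajc3) and in Xbp1, against 0.076% of the 27457 promoters in the table. The related ERSE-II, which is ATTGG, 1 base of any kind and CCACG, was found in Hyou1 and Herpud1 (0.051% of all promoters). The XBP1 motif TGACGTGG lay in Hyou1, where it overlapped ERSE-II (0.594% of all). The ATF4 element TGATGNAA was found in Chac1, Nupr1, Trib3 and Herpud1, against 3.58% of all promoters. It lay in 0 of the 11 chaperone genes and in 0 of the 6 amino acid genes. The amino acid genes held none of the other elements either. These letters are matches in those 250 bases only. The genes printed were chosen after the matches were seen, each is read 5′ to 3′ along the gene's strand, and the capitals mark the letters of the motif that are fixed.
Hspa5, chr3:38452963-38453001, plus strand: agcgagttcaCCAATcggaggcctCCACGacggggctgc
Hsp90b1, chr7:23012337-23012479, minus strand, with 2 elements on opposite strands: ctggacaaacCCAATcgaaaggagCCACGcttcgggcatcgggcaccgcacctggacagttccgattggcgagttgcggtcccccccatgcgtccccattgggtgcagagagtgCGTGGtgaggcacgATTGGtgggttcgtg
Creld2, chr7:121789229-121789267, plus strand: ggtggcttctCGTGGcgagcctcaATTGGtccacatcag
Xbp1, chr14:84604548-84604586, plus strand: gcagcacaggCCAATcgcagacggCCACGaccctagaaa
Chac1, chr3:126795954-126795981, plus strand: ttctccgccgTTgCATCActcctgctag
Nupr1, chr1:190645939-190645966, minus strand: aaaggccagaTTgCATCAgacagggctt
Trib3, chr3:161275537-161275564, minus strand: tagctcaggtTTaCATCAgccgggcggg

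Levels are given as log2(signal + 16), where the signal is the deposited intensity, and differences are log2 differences with limma's standard error (± after a difference) on that scale. Levels of different probe sets are not comparable with each other. The mean level over all 30 arrays ran between 9.51 and 15.61 for the 32 genes, above the dimmest mean tested, 7.956. A gene is said to rise or fall where limma's adjusted p, over all 18625 probe sets of a comparison, was under 0.05. The wells had responded to DINP: Acot1, Ehhadh, Cyp4a1 and Pdk4, targets of the nuclear receptor PPARα, served as the check, and Ehhadh, a peroxisomal enzyme, was 8.26-fold and 6.73-fold higher than in vehicle wells after 24 h at 25 and 100 mM, and 7.01-fold and 6.27-fold higher after 48 h. Hepatocyte markers were among the brightest genes, with mean levels of 16.72 for albumin (Alb) and 16.61 for transthyretin (Ttr). Of 7 measured hepatocyte markers, 0 rose, Tat fell in all 4 comparisons with the vehicle and Fgb at 100 mM and 48 h. The tested markers of other liver cells had mean levels between 8.13 (Krt19) and 10.31 (Cd68), and dimmer ones were not tested. The exception was the bile duct marker Epcam at 13.28, which fell at both doses at 48 h. The Kupffer cell gene Cd5l rose at both doses at 48 h, and the stellate cell gene Acta2 fell at 100 mM and 48 h. Signals were summed over every listed marker with a probe set, whether or not it was bright enough to be tested. For Kupffer cells, 6 of 7 listed markers had a probe set and 4 were tested. Their sum at 48 h was 2621 to 3145 at 25 mM and 2370 to 3257 at 100 mM, against 2066 to 2838 in vehicle wells. At 24 h it was 2727 to 3393 at 25 mM and 2626 to 3004 at 100 mM, against 3120 to 3759 in vehicle wells. The 100 mM wells thus lay below the vehicle at 24 h without overlap. The sum of the 6 stellate cell markers, 4 of them tested, was 2562 to 3019 at 100 mM and 48 h, against 2980 to 3571 in vehicle wells. Of 5 listed bile duct markers, 4 had a probe set and 2 were tested. The sum of these 4 at 48 h was 8810 to 11706 at 25 mM and 10440 to 12645 at 100 mM, against 11848 to 14309 in vehicle wells. Most of this sum is Epcam, whose mean signal over all arrays was 10070, beside 278 for Krt19. The median difference of the 2 tested markers at 48 h was -0.29 at 25 mM and 0.05 at 100 mM. The part of these cells in the results was not tested. Fewer cells of a type and less RNA per cell cannot be told apart in these wells.

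One array stood apart before any comparison. On replicate 1 of the vehicle 48 h group, 2.63% of the tested probe sets lay so far from the other 4 arrays of the group that they passed Dixon's test, against 0.859% to 1.82% on the other 29 arrays. Its correlation with the median of the other 4 arrays of its group was 0.978. The same measure ran from 0.977 to 0.986 on the other 29 arrays. Both 48 h comparisons and the comparison of the vehicle times rest on this array, so each is given with and without it.

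After 24 h, few of these genes were called. At 25 mM 2 of the 32 genes rose (Shmt2 and Slc3a2) and 3 fell (Hsp90b1, Manf and Edem1), where 13.3% of all tested probe sets were called, 5.85% higher and 7.49% lower. At 100 mM 1 gene rose (Shmt2) and 3 fell (Hsp90b1, Dnajb9 and Edem1), against a background of 12.3%, with 5.55% higher and 6.74% lower. These shares are near those of the array as a whole. Both doses were set against the same 5 vehicle arrays, so the 2 comparisons are not independent. After 48 h, 2 genes rose (Sel1l and Shmt2) and 13 fell at 25 mM, where 17.9% of all tested probe sets were called, 7.41% higher and 10.5% lower. At 100 mM 1 gene rose (Shmt2) and 10 fell, where 14.6% of all were called, 6.49% higher and 8.07% lower. Of the 32 genes, 40.6% thus fell at 25 mM and 31.25% at 100 mM. The genes were read at their brightest probe sets, while the shares over all tested probe sets include dimmer ones. At 48 h, 1953 of the 18625 probe sets were called lower at 25 mM and 1503 at 100 mM. With a filter at the 60th percentile these were 1984 and 1495 of 12417. These 48 h comparisons share their vehicle arrays too. The median difference of the 32 genes was 0.00048 and -0.05 at 24 h for 25 and 100 mM, and -0.16 and -0.11 at 48 h, beside medians over all tested probe sets of -0.05, -0.05, -0.03 and -0.07. Without the array that stood apart, 2 rose and 11 fell at 25 mM and 48 h (18.5% of all tested called, 7.48% higher and 11.1% lower), and 1 rose and 5 fell at 100 mM and 48 h (15.2% called, 6.71% higher and 8.46% lower). All 5 DINP arrays lay above all 5 vehicle arrays for 1 gene at 25 mM and 1 at 100 mM after 24 h, and below them for 3 at each dose, where 4.76% and 4.94% of all tested probe sets lay above and 6.84% and 6.95% below. After 48 h this held for 1 gene above and 8 below at 25 mM, and 0 above and 7 below at 100 mM, where 4.81% lay above at each dose and 6.06% and 5.77% below.

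**Figure D1:**
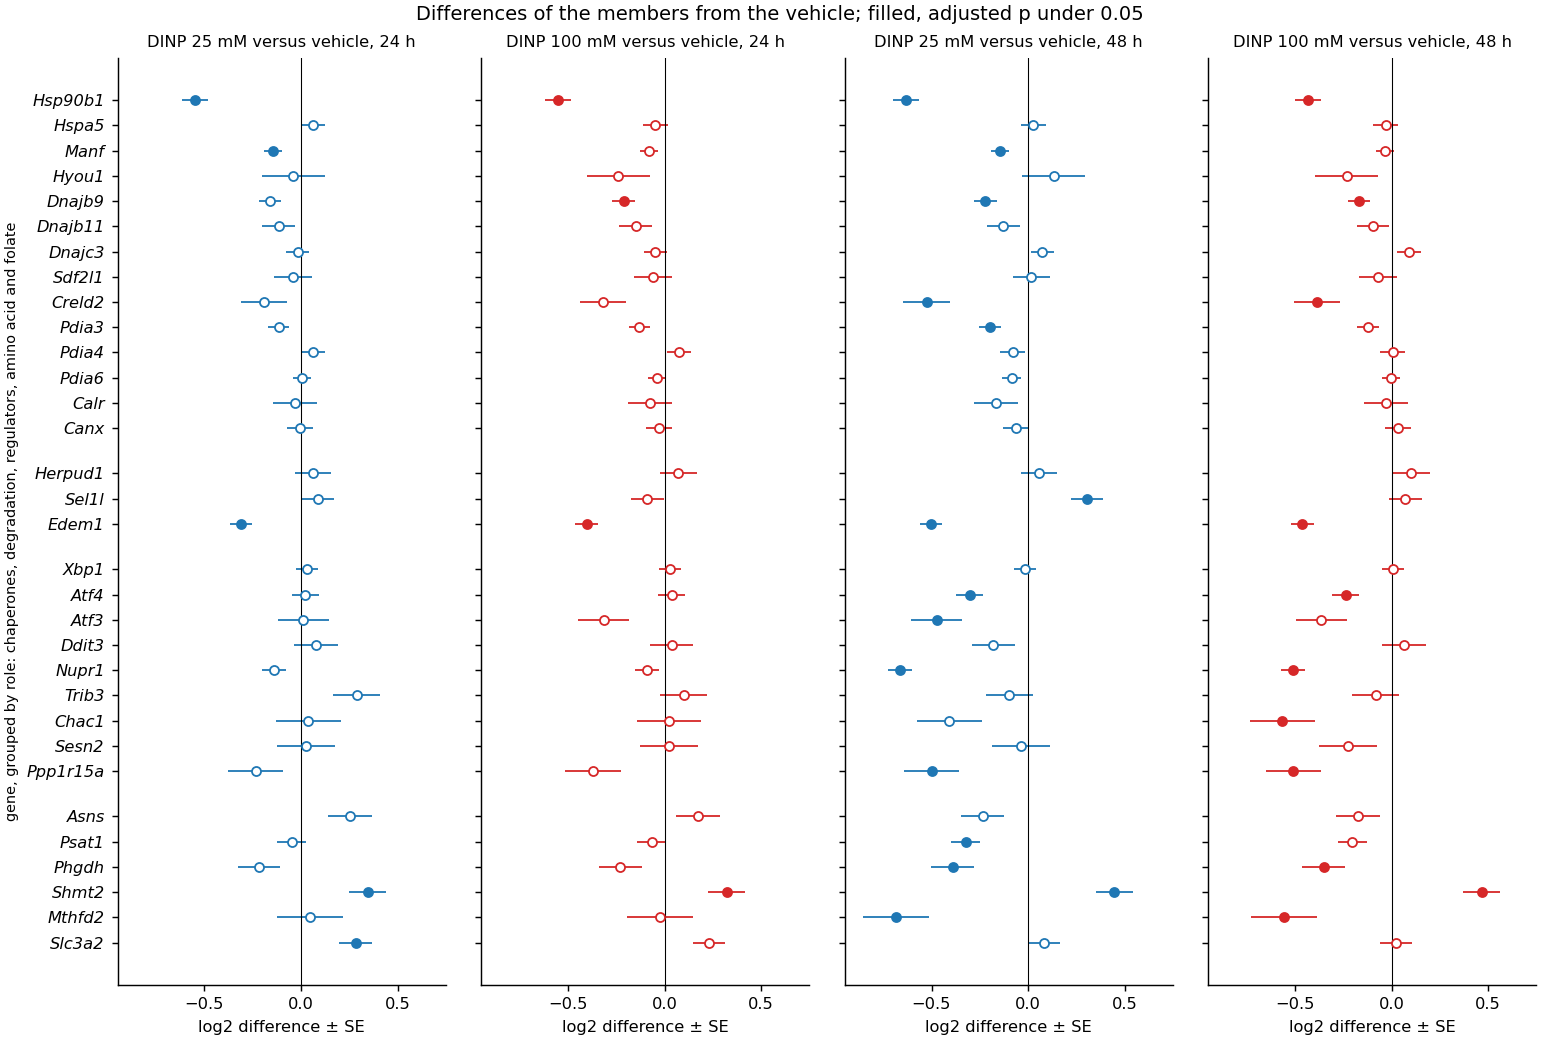
Log2 difference from the vehicle of the same time (x axis, with limma's standard error) for each of the 32 measured genes (y axis, grouped by role), in 4 panels for 25 and 100 mM at 24 h and 25 and 100 mM at 48 h. Filled points passed an adjusted p of 0.05; Hsp90b1 and Edem1 lie left of 0 in all 4 panels and Shmt2 lies right of it, while the ATF4 regulators and amino acid genes lie mostly left of 0 in the 48 h panels.

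Among the 14 chaperones and folding enzymes, 2 fell at each dose after 24 h, and 5 at 25 mM and 3 at 100 mM after 48 h, while 0 rose in any of the 4 comparisons. Of all tested probe sets, 7.49% and 6.74% were called lower at 24 h for 25 and 100 mM, and 10.5% and 8.07% at 48 h. Called higher were 5.85% and 5.55% at 24 h, and 7.41% and 6.49% at 48 h. The median difference of the 14 genes was -0.04 and -0.08 at 24 h and -0.11 and -0.05 at 48 h for 25 and 100 mM. Beside these, the medians over all tested probe sets were -0.05 and -0.05 at 24 h and -0.03 and -0.07 at 48 h. With each array centred on its median, the median of the chaperones was above 0 at 25 mM and 24 h (0.03), at 100 mM and 24 h (0.0038) and at 100 mM and 48 h (0.05), so no direction holds for the family at those doses and times. The falls below were of single genes.

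Hsp90b1 encodes GRP94, the HSP90 chaperone of the ER, whose promoter held both elements printed above, and it fell in all 4 comparisons. Its level at 24 h was 14.69, 14.59, 14.55, 14.67 and 14.77 in the 5 wells at 25 mM, against 15.06, 15.13, 15.26, 15.29 and 15.30 in vehicle wells. At 100 mM the levels were 14.55, 14.70, 14.68, 14.65 and 14.69. All 10 DINP arrays lay below all vehicle arrays, and the differences were -0.55 ± 0.07 at 25 mM (adjusted p = 2.21e-07) and -0.55 ± 0.07 at 100 mM (adjusted p = 2.64e-07). At 48 h the levels were 14.31, 14.44, 14.30, 14.43 and 14.26 at 25 mM, against 14.67, 14.998, 14.99, 15.11 and 15.12 in vehicle wells. At 100 mM they were 14.39, 14.53, 14.53, 14.56 and 14.70. Replicate 1 was the lowest vehicle array, and at 100 mM 1 well reached above it, while the arrays at 25 mM did not overlap with the vehicle. The differences were -0.63 ± 0.07 (adjusted p = 1.20e-08) and -0.43 ± 0.07 (adjusted p = 1.47e-05), and -0.71 and -0.51 without that vehicle array.

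The main chaperone of the ER was not called. Hspa5 encodes BiP, which binds unfolded proteins and holds the stress sensors inactive, and its promoter carries the same element as Hsp90b1. Its levels at 24 h were 15.79, 15.67, 15.65, 15.88 and 15.56 at 25 mM, against 15.70, 15.66, 15.67, 15.67 and 15.53 in vehicle wells, and the groups overlapped. The 4 differences of Hspa5 from the vehicle lay between -0.05 ± 0.06 (100 mM, 24 h; adjusted p = 0.719) and 0.06 ± 0.06 (25 mM, 24 h; adjusted p = 0.618), with 0.03 ± 0.06 and -0.03 ± 0.06 at 48 h for 25 and 100 mM. The other 8 chaperones without a call in any of these comparisons were Hyou1, Dnajb11, Dnajc3, Sdf2l1, Pdia4, Pdia6, Calr and Canx. The second probe set of Hyou1 and the 2 dimmer probe sets of Canx were not called against the vehicle either. Of these 8, Pdia6 passed at 25 mM and 48 h with quantile normalisation (-0.17, adjusted p = 0.00597).

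Creld2, a folding factor of the ER that rises early in ER stress, fell at 48 h. Its levels were 10.59, 11.23, 10.72, 11.25 and 10.50 at 25 mM, against 11.48, 11.53, 11.31, 11.35 and 11.27 in vehicle wells. At 100 mM they were 11.10, 11.10, 10.95, 10.98 and 10.86. Neither dose overlapped with the vehicle, although the spread at 25 mM was wide. The differences were -0.52 ± 0.12 (adjusted p = 0.00182) and -0.39 ± 0.12 (adjusted p = 0.0272). The call at 100 mM ended without vehicle 48 h replicate 1 (-0.36, adjusted p = 0.0545) or replicate 2 (-0.35, adjusted p = 0.0726), without replicate 3 (adjusted p = 0.0535), 4 (adjusted p = 0.0524) or 5 (adjusted p = 0.0667) of the 100 mM group, with each array centred on its median (adjusted p = 0.196) and with quantile normalisation (adjusted p = 0.103).

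Dnajb9 (ERdj4), a co-chaperone of BiP that restrains IRE1α, differed from the vehicle by -0.16 ± 0.06 at 25 mM (adjusted p = 0.0652, or 0.0175 without vehicle 24 h replicate 1 and 0.0382 without vehicle 48 h replicate 1) and -0.21 ± 0.06 at 100 mM (adjusted p = 0.0142) after 24 h, a call that ended with each array centred on its median (-0.13, adjusted p = 0.360), and by -0.22 ± 0.06 (adjusted p = 0.00685, or 0.0545 with centring) and -0.17 ± 0.06 (adjusted p = 0.0483) at 25 and 100 mM and 48 h. At 48 h its levels were 13.48 to 13.60 at 25 mM and 13.53 to 13.71 at 100 mM, and those of vehicle wells 13.55 to 13.84, with replicate 1 lowest at 13.55 and the others from 13.76. The call at 100 mM and 48 h was at the edge of the threshold: without that array the difference was -0.22 (adjusted p = 0.00653), while it ended without most other single arrays, among them each of the other 4 vehicle 48 h arrays and replicates 1 to 4 at 100 mM and 48 h (up to adjusted p = 0.126), and with each array centred on its median (adjusted p = 0.700), no filter (adjusted p = 0.0727), no variance trend (adjusted p = 0.0812) or the compared groups alone (adjusted p = 0.106). Manf, a secreted ER stress protein, fell by 0.15 ± 0.05 at 25 mM at both times (adjusted p = 0.0349 at 24 h and 0.0273 at 48 h). Its 5 levels at 25 mM and 48 h lay between 14.36 and 14.38, below the vehicle's 14.39 to 14.61. Both calls of Manf ended when single arrays were left out, at 24 h with 7 of the arrays (up to adjusted p = 0.0947) and at 48 h with 4, among them vehicle 48 h replicate 1 (adjusted p = 0.0769). They ended with centring too (-0.07, adjusted p = 0.647 at 24 h, and 0.216 at 48 h), with no variance trend (adjusted p = 0.0732 and 0.0589) and with the compared groups alone (adjusted p = 0.0599 and 0.0974), at 24 h also with no filter on dim probe sets (adjusted p = 0.0577) and at 48 h with array weights (adjusted p = 0.0506). Pdia3 (ERp57), a disulphide isomerase for glycoproteins, fell by 0.20 ± 0.06 at 25 mM and 48 h (adjusted p = 0.0123), a call that ended without DINP 25 mM 48 h replicate 5 (-0.15, adjusted p = 0.0602), with centring (adjusted p = 0.0970) and with the compared groups alone (adjusted p = 0.0590), and was absent at its dimmer probe set (adjusted p = 0.890). With quantile normalisation, Manf and Pdia3 were called lower in all 4 comparisons.

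**Figure D2:**
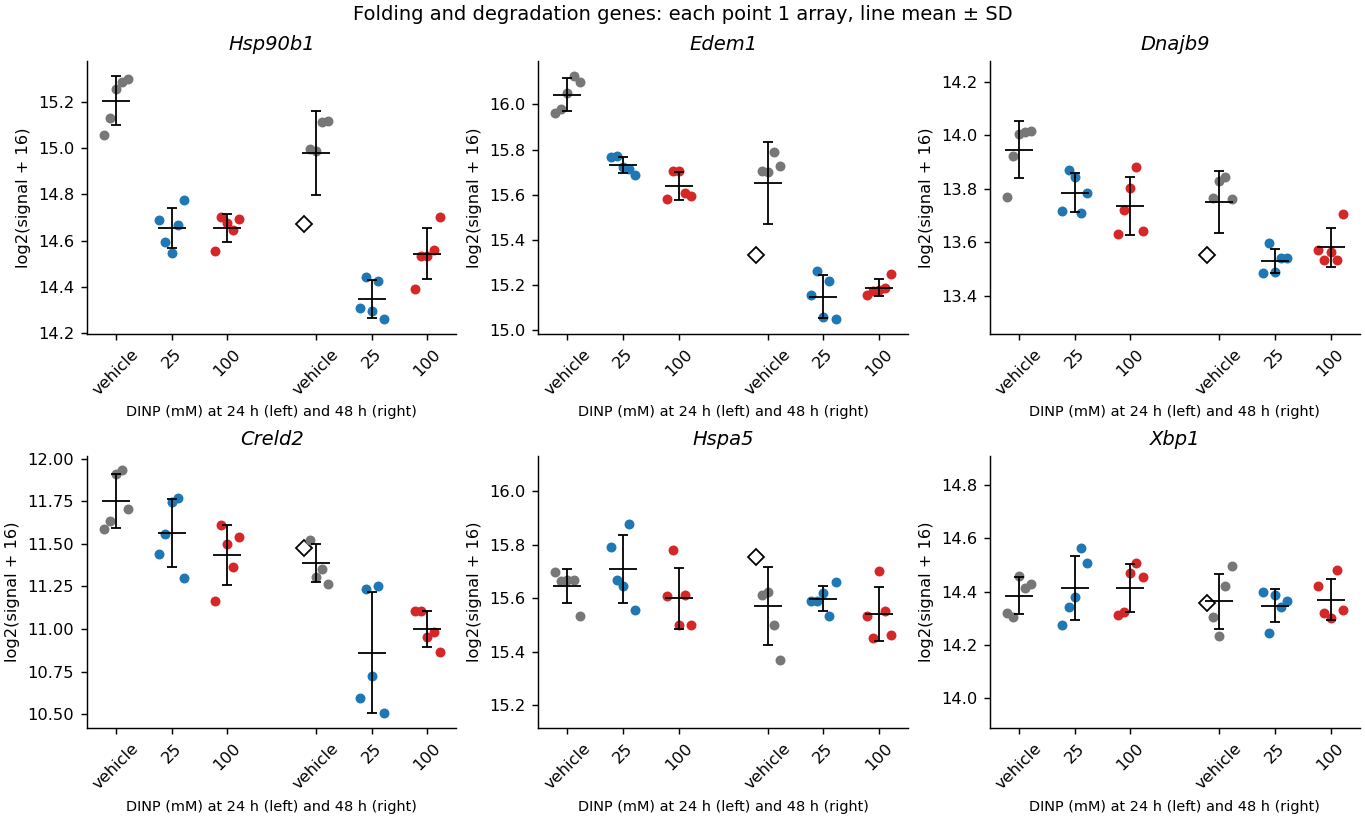
Levels as log2(signal + 16) (y axis) of Hsp90b1, Edem1, Dnajb9, Creld2, Hspa5 and Xbp1 in vehicle wells and at 25 and 100 mM DINP, at 24 h (left) and 48 h (right). Each point is 1 array, the line and bars are the mean and SD of 5, and the open diamond is vehicle 48 h replicate 1; Hsp90b1 and Edem1 lie below the vehicle at both times, and Hspa5 and Xbp1 overlap with it.

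Edem1, which extracts misfolded glycoproteins from the folding cycle for degradation, fell in all 4 comparisons, and its 3 probe sets were each called lower in each. At 24 h the levels of its brightest probe set were 15.77, 15.77, 15.72, 15.71 and 15.69 at 25 mM, against 15.96, 15.98, 16.05, 16.13 and 16.10 in vehicle wells. At 100 mM they were 15.58, 15.71, 15.70, 15.61 and 15.60. At 48 h they were 15.16, 15.26, 15.06, 15.22 and 15.05 at 25 mM, against 15.33, 15.71, 15.70, 15.79 and 15.73 in vehicle wells. No array of either dose reached its vehicle group at either time, with 15.15, 15.17, 15.18, 15.19 and 15.25 at 100 mM and 48 h. The differences were -0.31 ± 0.06 (adjusted p = 0.000241) and -0.40 ± 0.06 (adjusted p = 5.55e-06) at 24 h, and -0.50 ± 0.06 (adjusted p = 6.78e-08) and -0.46 ± 0.06 (adjusted p = 4.30e-07) at 48 h for 25 and 100 mM.

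The other 2 genes of degradation were not called lower in any of the 4 comparisons. Sel1l, the adaptor of the HRD1 ubiquitin ligase, rose at 25 mM and 48 h, with levels of 12.12, 12.06, 12.03, 11.92 and 12.02 at 25 mM, against 11.52, 11.79, 11.79, 11.84 and 11.68 in vehicle wells. Its arrays did not overlap, and the difference was 0.31 ± 0.08 (adjusted p = 0.00911). At 100 mM and 48 h it was 0.07 ± 0.08 (adjusted p = 0.641). Herpud1, an ER membrane protein of the same ligase complex whose promoter held ERSE-II and the ATF4 element, had differences between 0.06 ± 0.09 and 0.10 ± 0.09, none of them called.

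Among the 9 measured regulators, 0 were called by limma at 24 h at either dose, with an unadjusted p under 0.05 for 2 at each dose. At 48 h, 4 fell at each dose. Over all tested probe sets, 13.3% and 12.3% were called at 24 h for 25 and 100 mM, and 10.5% and 8.07% were called lower at 48 h. The median difference of the 9 regulators was 0.02 at both doses at 24 h, and -0.30 and -0.24 at 48 h for 25 and 100 mM. Medians over all tested probe sets were -0.05 at both doses at 24 h, and -0.03 and -0.07 at 48 h. Atf4, Nupr1 and Ppp1r15a fell at both doses, Atf3 at 25 mM and Chac1 at 100 mM. Xbp1, which carries the chaperone element in its own promoter, had differences between -0.02 ± 0.06 and 0.03 ± 0.06 in the 4 comparisons, with levels of 14.25 to 14.40 at 25 mM and 48 h and 14.23 to 14.50 in vehicle wells. The array signal does not separate spliced from unspliced Xbp1. Ddit3, the apoptosis-linked factor CHOP, was not called in any comparison either, at -0.18 ± 0.11 at 25 mM and 0.06 ± 0.11 at 100 mM after 48 h. Trib3, a pseudokinase that feeds back on ATF4, and Sesn2, a leucine-responsive regulator of mTORC1, were also never called, with differences of -0.10 to 0.29 and -0.22 to 0.02. Leaving out a single array added some calls at 24 h. Trib3 passed at 25 mM without DINP 25 mM 24 h replicate 1 (0.38, adjusted p = 0.0310). Its 2 dimmer probe sets had adjusted p of 0.284 and 0.588 in that comparison with all arrays. Atf3 and Ppp1r15a passed at 100 mM without vehicle 24 h replicate 5 (-0.41, adjusted p = 0.0420, and -0.47, adjusted p = 0.0299). With quantile normalisation Nupr1 was called lower at 24 h at both doses (-0.23, adjusted p = 0.00270, and -0.20, adjusted p = 0.0145, beside -0.14 and -0.09 without it), and with array weights Ppp1r15a was called at 100 mM and 24 h (adjusted p = 0.0341).

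Nupr1, a small stress-induced chromatin protein and ATF4 target, had the largest fall of the regulators at 25 mM and 48 h, while at 100 mM and 48 h that of Chac1 was larger with all arrays and that of Ppp1r15a without vehicle 48 h replicate 1. At 24 h its levels were 15.32, 15.54, 15.58, 15.57 and 15.45 at 25 mM, against 15.52, 15.77, 15.73, 15.56 and 15.58 in vehicle wells, which overlap. At 48 h they were 15.11, 15.16, 15.20, 15.21 and 15.11 at 25 mM, against 16.01, 15.83, 15.74, 15.66 and 15.87 in vehicle wells. The 100 mM wells had 15.28, 15.42, 15.13, 15.41 and 15.30. Both doses lay wholly below the vehicle at 48 h. The differences at 48 h were -0.66 ± 0.06 (adjusted p = 7.58e-10) and -0.51 ± 0.06 (adjusted p = 2.06e-07), and -0.62 and -0.47 without vehicle 48 h replicate 1. Nupr1 was the gene of the 32 whose effect of 25 mM differed between the times: the effect was lower at 48 h by 0.52 ± 0.09 (adjusted p = 0.00250), where 0.242% of all tested probe sets were called. For 100 mM the same difference was -0.42 ± 0.09 (adjusted p = 0.0501), and 0 of the 32 genes were called, against 0.0644% of all; 5 had an unadjusted p under 0.05. That value crossed the threshold when any of 8 single arrays was left out (lowest adjusted p = 0.0221).

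Atf4 mRNA encodes the transcription factor at the head of the branch. At 48 h its levels were 14.41, 14.35, 14.43, 14.40 and 14.33 at 25 mM, against 15.04, 14.57, 14.53, 14.65 and 14.65 in vehicle wells. With 100 mM the levels were 14.37, 14.52, 14.48, 14.48 and 14.39. Every DINP array was below every vehicle array, and replicate 1 was the highest vehicle array. The differences were -0.30 ± 0.07 (adjusted p = 0.00201) and -0.24 ± 0.07 (adjusted p = 0.0183). Without that array they were -0.21 (adjusted p = 0.00798) and -0.15 (adjusted p = 0.0816), so the call at 100 mM rested on it. That call also ended without DINP 100 mM 48 h replicate 1 (adjusted p = 0.0507) with the compared groups alone (adjusted p = 0.0735) and with each array centred on its median (-0.13, adjusted p = 0.424).

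Ppp1r15a (GADD34), which brings the phosphatase that reverses eIF2α phosphorylation, fell at 48 h by 0.50 ± 0.14 at 25 mM (adjusted p = 0.0127) and 0.51 ± 0.14 at 100 mM (adjusted p = 0.0133). Its levels were 10.87, 10.88, 10.87, 10.37 and 10.25 at 25 mM, against 10.81, 11.28, 11.27, 11.18 and 11.21 in vehicle wells. In the 100 mM wells the levels were 11.005, 10.58, 10.83, 10.49 and 10.30. Replicate 1 was the lowest vehicle array here, and the groups overlapped only through it. Without it the differences were -0.58 and -0.59. The calls ended without replicate 5 of the 25 mM group (adjusted p = 0.0568) and of the 100 mM group (adjusted p = 0.0528). Atf3, an ATF4-induced repressor, fell at 25 mM and 48 h by 0.47 ± 0.13 (adjusted p = 0.0102), with levels of 10.68 to 11.21 at 25 mM against 11.41 to 11.60 in vehicle wells. At 100 mM its difference was -0.37 ± 0.13 (adjusted p = 0.0601), which passed without any of 4 single arrays (lowest adjusted p = 0.0268, without DINP 100 mM 24 h replicate 5), with the compared groups alone (adjusted p = 0.0249) and with the 60th percentile filter (adjusted p = 0.0426).

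Chac1, which degrades glutathione and whose promoter held the ATF4 element, shows what the array that stood apart does to a mean. At 48 h its levels were 11.10, 11.11, 11.27, 10.83 and 11.04 at 100 mM, against 12.54, 11.36, 11.38, 11.39 and 11.51 in vehicle wells. At 25 mM they were 11.18, 11.05, 11.29, 11.20 and 11.42. The vehicle mean was 11.64 with all 5 arrays, above each of the other 4 vehicle wells. The differences were -0.41 ± 0.17 at 25 mM (adjusted p = 0.0939) and -0.57 ± 0.17 at 100 mM (adjusted p = 0.0189). Without replicate 1 they were -0.18 (adjusted p = 0.403) and -0.34 (adjusted p = 0.0833). The call at 100 mM also ended without DINP 100 mM 48 h replicate 4 (-0.51, adjusted p = 0.0607), with quantile normalisation (adjusted p = 0.0612), with centring (adjusted p = 0.0719) and with the compared groups alone (adjusted p = 0.0600).

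**Figure D3:**
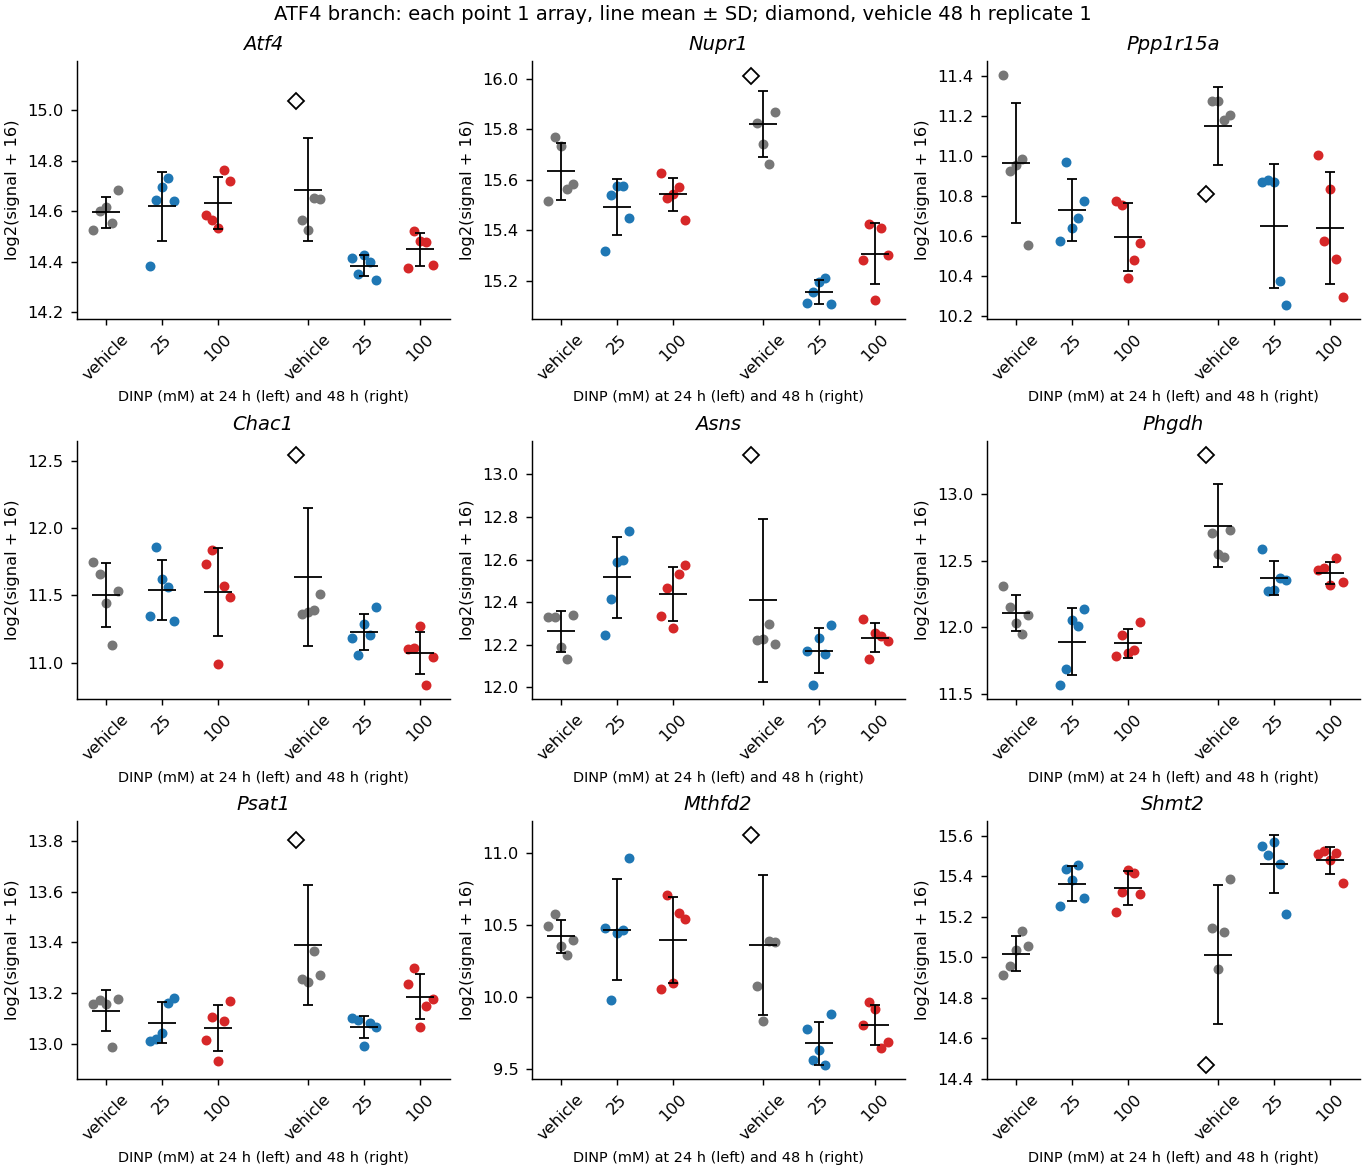
Levels as log2(signal + 16) (y axis) of 9 genes of the ATF4 branch in vehicle wells and at 25 and 100 mM DINP, at 24 h (left) and 48 h (right). Each point is 1 array, the line and bars are the mean and SD of 5, and the open diamond is vehicle 48 h replicate 1, which is the highest vehicle 48 h array for Atf4, Nupr1, Chac1, Asns, Phgdh, Psat1 and Mthfd2 and the lowest for Ppp1r15a and Shmt2.

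The 6 genes of amino acid and folate metabolism moved in both directions. At 24 h 2 rose at 25 mM and 1 at 100 mM, and 0 fell. At 48 h 1 rose and 3 fell at 25 mM, and 1 rose and 2 fell at 100 mM. Over all tested probe sets, 5.85% and 5.55% were called higher and 7.49% and 6.74% lower at 24 h for 25 and 100 mM. At 48 h these shares were 7.41% and 6.49% higher and 10.5% and 8.07% lower. The median difference of the 6 genes was 0.15 and 0.08 at 24 h and -0.28 and -0.19 at 48 h for 25 and 100 mM. Beside these, the medians over all tested probe sets were -0.05 and -0.05 at 24 h and -0.03 and -0.07 at 48 h. Without vehicle 48 h replicate 1, the 48 h medians of the 6 genes were -0.14 and -0.05. Then 1 gene was up and 2 down at 25 mM, and 1 up and 0 down at 100 mM. Of all tested probe sets, 7.48% were then called higher and 11.1% lower at 25 mM, and 6.71% and 8.46% at 100 mM.

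Asns, asparagine synthetase and a classical ATF4 target, was not called in any of the comparisons. At 48 h its levels were 12.17, 12.01, 12.23, 12.16 and 12.29 at 25 mM, against 13.09, 12.22, 12.23, 12.30 and 12.20 in vehicle wells. For 100 mM the levels were 12.32, 12.13, 12.25, 12.24 and 12.22. The other 4 vehicle wells lay within the range of the 100 mM wells, and replicate 1 was above it. The differences were -0.24 ± 0.11 and -0.17 ± 0.11 with all arrays, and -0.06 and -0.00 without it. At 24 h Asns had a difference of 0.25 ± 0.11 at 25 mM (adjusted p = 0.147), with levels of 12.25 to 12.74 at 25 mM and 12.13 to 12.34 in vehicle wells. Leaving out vehicle 48 h replicate 1 left this difference as it was but lowered the shared spread, and its adjusted p was then 0.0169.

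Mthfd2, a mitochondrial enzyme of the folate cycle, fell most of the 32 genes at 25 mM and 48 h with all arrays, while without vehicle 48 h replicate 1 Hsp90b1 and Nupr1 were among those that fell more. Its levels were 9.78, 9.56, 9.63, 9.53 and 9.88 at 25 mM, against 11.12, 10.07, 9.83, 10.39 and 10.38 in vehicle wells. The 100 mM wells had 9.80, 9.96, 9.92, 9.64 and 9.69. The lowest vehicle array, 9.83, lay within both DINP groups, and replicate 1 was the highest. The differences were -0.68 ± 0.17 (adjusted p = 0.00408) and -0.56 ± 0.17 (adjusted p = 0.0240), and without replicate 1 -0.49 (adjusted p = 0.0206) and -0.37 (adjusted p = 0.108). The call at 100 mM also ended without replicate 4 (adjusted p = 0.0625) or 5 (adjusted p = 0.0519) of that group, with quantile normalisation (adjusted p = 0.0784), with centring (adjusted p = 0.115) and with the compared groups alone (adjusted p = 0.0656).

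Phgdh and Psat1 catalyse the first and second steps of serine synthesis. Phgdh had levels of 12.59, 12.27, 12.28, 12.37 and 12.35 at 25 mM and 48 h, against 13.29, 12.71, 12.55, 12.53 and 12.73 in vehicle wells. With 100 mM the levels were 12.43, 12.44, 12.32, 12.52 and 12.34, all below the vehicle, although the nearest values were 12.52 and 12.53. Its differences were -0.39 ± 0.11 (adjusted p = 0.0110) and -0.35 ± 0.11 (adjusted p = 0.0269). Both calls ended without vehicle 48 h replicate 1 (-0.26, adjusted p = 0.0527, and -0.22, adjusted p = 0.118), and that at 100 mM also without replicate 3 (adjusted p = 0.0622) or 5 (adjusted p = 0.0563) of the 100 mM group, with centring (adjusted p = 0.233), with the compared groups alone (adjusted p = 0.0623) and with array weights (adjusted p = 0.0533). Psat1 fell at 25 mM and 48 h, with levels of 13.10, 13.09, 12.99, 13.08 and 13.06 at 25 mM, against 13.81, 13.26, 13.25, 13.37 and 13.27 in vehicle wells. The arrays did not overlap, and the difference was -0.32 ± 0.07 (adjusted p = 0.00191), or -0.22 (adjusted p = 0.00528) without replicate 1. At 100 mM it was -0.20 ± 0.07 (adjusted p = 0.0633), which passed without vehicle 48 h replicate 2, 3 or 5 or DINP 100 mM 48 h replicate 2 (lowest adjusted p = 0.0390), with quantile normalisation (adjusted p = 0.0200) and with the 60th percentile filter (adjusted p = 0.0462).

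Shmt2, the mitochondrial serine hydroxymethyltransferase that takes the serine made by these enzymes into the folate cycle, went the other way and rose in all 4 comparisons. Its levels at 24 h were 15.25, 15.44, 15.38, 15.45 and 15.29 at 25 mM, against 14.91, 14.95, 15.04, 15.13 and 15.06 in vehicle wells. In the 100 mM wells the levels were 15.22, 15.32, 15.43, 15.42 and 15.31, and neither dose overlapped with the vehicle at 24 h. At 48 h they were 15.55, 15.50, 15.57, 15.46 and 15.21 at 25 mM, against 14.47, 15.14, 14.94, 15.13 and 15.39 in vehicle wells. For 100 mM the levels were 15.51, 15.52, 15.48, 15.51 and 15.36, and the highest vehicle array reached into both DINP groups. The differences were 0.35 ± 0.10 (adjusted p = 0.0122) and 0.32 ± 0.10 (adjusted p = 0.0219) at 24 h, and 0.45 ± 0.10 (adjusted p = 0.000849) and 0.47 ± 0.10 (adjusted p = 0.000650) at 48 h. Without vehicle 48 h replicate 1, here the lowest vehicle array, the 48 h differences were 0.31 (adjusted p = 0.00178) and 0.33 (adjusted p = 0.00118). The 24 h call at 100 mM ended without vehicle 24 h replicate 1 (adjusted p = 0.0579) or 2 (adjusted p = 0.0515), and without replicate 3 (adjusted p = 0.0595) or 4 (adjusted p = 0.0558) at 100 mM and 24 h, and with quantile normalisation (adjusted p = 0.0814). Slc3a2, the heavy chain of amino acid exchangers such as that of leucine, rose at 25 mM and 24 h by 0.28 ± 0.08 (adjusted p = 0.0200), with levels of 14.52 to 14.92 at 25 mM and 14.37 to 14.58 in vehicle wells. The call ended without vehicle 24 h replicate 4 (adjusted p = 0.0617), and also without replicate 4 (adjusted p = 0.0780) or 5 (adjusted p = 0.0572) at 25 mM, or with quantile normalisation (adjusted p = 0.0749). At 100 mM and 24 h the difference was 0.23 ± 0.08 (adjusted p = 0.0681), which passed without vehicle 48 h replicate 1 (adjusted p = 0.0225) or 3 (adjusted p = 0.0493) or DINP 100 mM 24 h replicate 2 (adjusted p = 0.0497), and with the 60th percentile filter (adjusted p = 0.0478), the compared groups alone (adjusted p = 0.0136) or array weights (adjusted p = 0.0309).

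The array that stood apart had the ATF4 branch and the chaperones at different levels. It lay above the other 4 vehicle 48 h arrays for 5 of the 6 amino acid genes and 6 of the 9 regulators, for 4 of the 14 chaperones and for 1 of the 3 degradation genes. It lay below them for 1, 2, 4 and 2 genes of those groups. Over all tested probe sets it lay above the other 4 for 22.3% and below for 25.7%. Chac1 was 1.16 above the median of the other 4 arrays, Mthfd2 0.89, Asns 0.87, Phgdh 0.66, Trib3 0.66, Psat1 0.54, Slc3a2 0.47 and Atf4 0.43. Shmt2 was 0.67 below it, Ppp1r15a 0.43, and Hsp90b1 and Edem1 0.38 each. Hspa5 was 0.20 above and Xbp1 0.01 below. In a longer list of ATF4 targets and eIF2α kinases, 21 of 37 measured genes were above the other 4 arrays and 5 below, and in a longer list of ER folding, translocation and sensor genes 10 of 54 were above and 17 below. These genes and this array were looked at because the array stood apart in earlier results of the same data, and the cause of its levels was not tested.

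**Figure D4:**
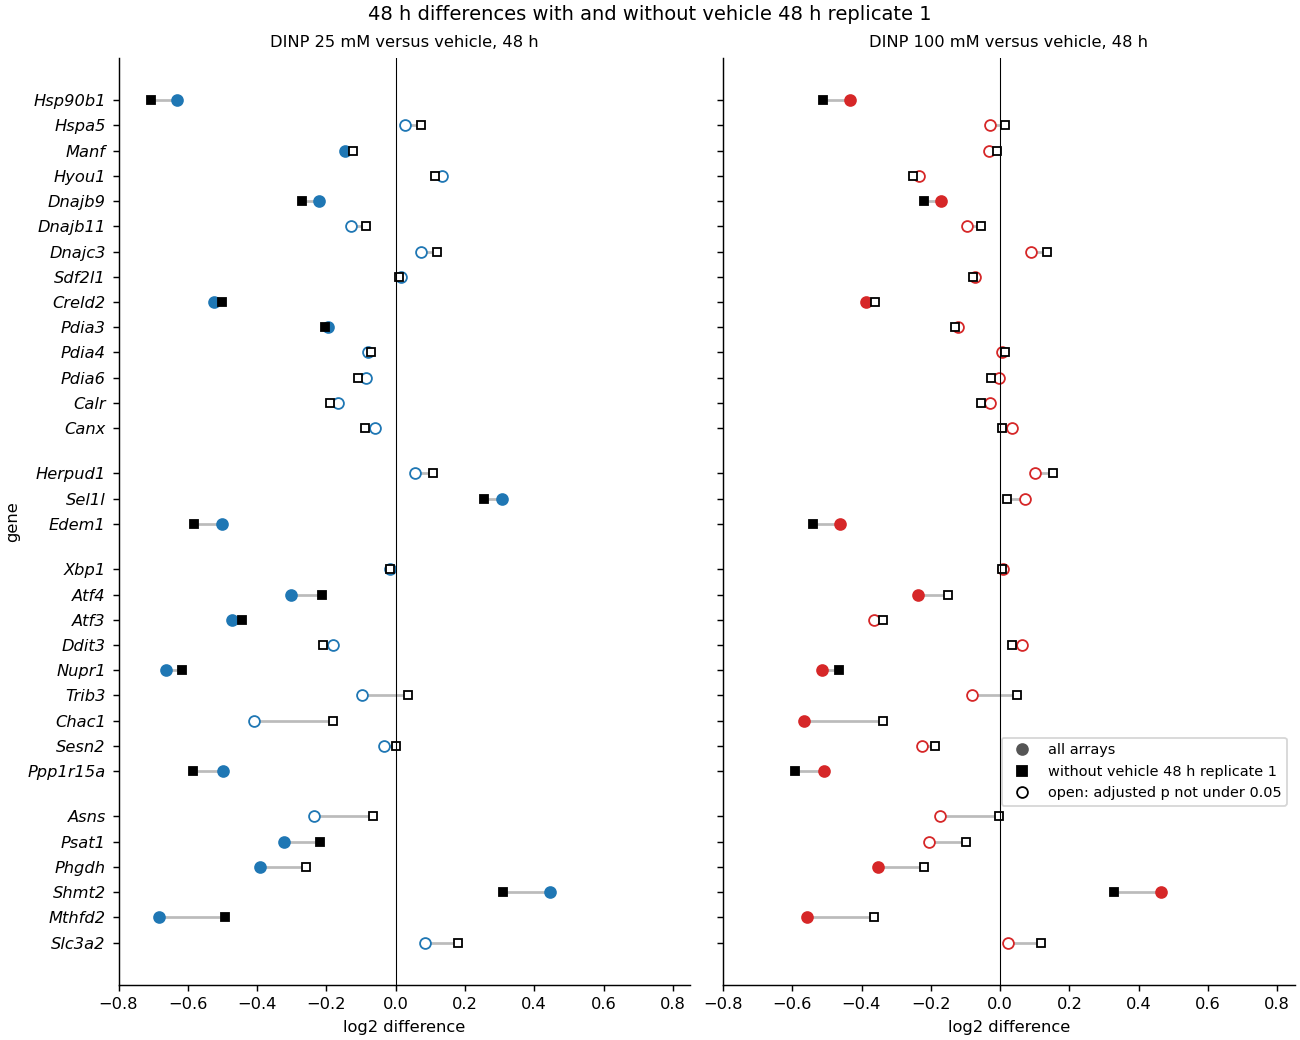
Log2 difference from the vehicle at 48 h (x axis) for the 32 genes (y axis), at 25 mM (left) and 100 mM (right), with all arrays (circles) and without vehicle 48 h replicate 1 (squares). Filled symbols passed an adjusted p of 0.05; the longest grey lines, which join both values, are those of Chac1, Mthfd2, Asns, Trib3, Phgdh and Shmt2, and all of these but Shmt2 moved towards higher values without the array.

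The doses were not told apart. Between 100 and 25 mM, 0 of the 32 genes were called at 24 h (0.0107% of all tested probe sets) and 0 at 48 h (0.00537%), with unadjusted p under 0.05 for 2 genes at 24 h and 6 at 48 h. Hsp90b1 at 48 h had the smallest of these p-values, with a difference of 0.20 ± 0.07 (unadjusted p = 0.00664, adjusted p = 0.528), and Sel1l followed with -0.23 ± 0.08 (adjusted p = 0.535). The test thus does not show that the doses act alike. Across the 25 mM comparisons, 27 of the 32 genes had a lower effect at 48 h than at 24 h, with a median of -0.11. Over all tested probe sets the median was 0.0054, with quartiles of -0.13 and 0.16. All genes were read on the same arrays, so this count is not one of independent genes. Across the 100 mM comparisons 17 were lower and 15 higher, with a median of -0.02 beside -0.01 over all. The gaps at 25 mM for Mthfd2 (-0.73 ± 0.24, adjusted p = 0.324), Asns (-0.49 ± 0.16, adjusted p = 0.315) and Atf4 (-0.32 ± 0.10, adjusted p = 0.255) did not pass the threshold. For the other ATF4 genes, a call at 48 h beside none at 24 h does not show that the times differ. Without vehicle 48 h replicate 1, Edem1 passed too (-0.27, adjusted p = 0.0479, with 0.306% of all tested called), and at 25 mM 24 of the 32 were lower. With all arrays this difference of Edem1 was -0.19 (adjusted p = 0.531) at its brightest probe set. At its dimmer probe sets it was -0.11 (adjusted p = 0.870) and -0.06 (adjusted p = 0.916).

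Time in culture moved members of the set as well. In vehicle wells, 4 of the 32 rose at 48 h against 24 h (Atf3, Nupr1, Psat1 and Phgdh) and 7 fell (Hsp90b1, Dnajb9, Dnajc3, Creld2, Pdia6, Canx and Edem1), where 14.4% of all tested probe sets were called, 6.67% higher and 7.68% lower. Markers of other liver cells moved between these times too. The summed signal of the Kupffer cell markers was 2066 to 2838 at 48 h against 3120 to 3759 at 24 h. That of the bile duct markers, most of it from Epcam, was 11848 to 14309 at 48 h against 8524 to 10569 at 24 h. Neither sum overlapped between the times. Cd5l and the endothelial gene Lyve1 fell and Epcam rose, and their part in the differences was not tested. Chaperones and folding enzymes had a median difference of -0.21, with 6 of 14 lower and 0 higher, and the amino acid genes one of 0.07. Phgdh rose most, by 0.66 ± 0.11 (adjusted p = 8.76e-05), with levels of 12.53 to 13.29 at 48 h against 11.95 to 12.31 at 24 h. Atf3 rose by 0.51 ± 0.13 (adjusted p = 0.00809), with 11.41 to 11.60 at 48 h against 10.60 to 11.32 at 24 h. Neither gene overlapped between the times. Edem1 fell by 0.39 ± 0.06 (adjusted p = 1.80e-05), Creld2 by 0.37 ± 0.12 (adjusted p = 0.0364), Canx, a lectin chaperone of glycoproteins, by 0.24 ± 0.07 (adjusted p = 0.0120), and Dnajc3 and the disulphide isomerase Pdia6 by 0.23 each (adjusted p = 0.00893 and 0.000786). Pdia6 had levels of 14.41 to 14.57 at 48 h against 14.67 to 14.80 at 24 h, with no overlap. Without vehicle 48 h replicate 1, 2 genes rose (Atf3 and Phgdh) and 5 fell, where 10.9% of all were called (5.15% higher and 5.7% lower), and Nupr1 (adjusted p = 0.153), Psat1 (adjusted p = 0.0755), Hsp90b1 (adjusted p = 0.102) and Dnajb9 (adjusted p = 0.0954) lost their calls. The calls of these 4 genes also ended without single vehicle 24 h arrays, for Hsp90b1 without replicate 4 or 5 (up to adjusted p = 0.0590), for Dnajb9 without 3, 4 or 5 (up to adjusted p = 0.0603), for Psat1 without 4 (adjusted p = 0.0607) and for Nupr1 without 1, 4 or 5 (up to adjusted p = 0.112) or vehicle 48 h replicate 2 or 5. Leaving out single arrays also ended the call of Creld2 (vehicle 24 h replicates 3 and 4 and vehicle 48 h replicates 3, 4 and 5, up to adjusted p = 0.103), and with each array centred on its median 2 genes rose and 2 fell. With the compared groups alone the calls of Hsp90b1, Dnajb9, Psat1 and Nupr1 ended, and with no filter or no variance trend those of Creld2 and Nupr1 (adjusted p = 0.0549 to 0.0949 over these fits).

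Other genes of the same pathways were read from lists chosen by function. Of 54 genes of ER translocation, folding and stress sensing, 8 rose and 2 fell at 25 mM and 5 rose and 3 fell at 100 mM after 24 h, and 8 rose and 5 fell at 25 mM and 10 rose and 2 fell at 100 mM after 48 h. Over all tested probe sets, 5.85%, 5.55%, 7.41% and 6.49% were called higher and 7.49%, 6.74%, 10.5% and 8.07% lower in these 4 comparisons. The list medians were 0.02, 0.04, -0.04 and 0.01. Creb3l3, a membrane-bound factor of the liver that is processed like ATF6, rose most, by 1.28 ± 0.07 and 1.22 ± 0.07 at 24 h and 1.32 ± 0.07 and 1.29 ± 0.07 at 48 h for 25 and 100 mM. Its levels at 24 h ran between 14.19 and 14.44 at 25 mM, against 12.95 and 13.13 in vehicle wells. The oxidase Ero1b, which feeds disulphide bonds to the isomerases, fell in all 4 comparisons, by 0.55 ± 0.11 at 25 mM and 24 h. Ero1a, its sister oxidase, rose at 48 h by 0.40 ± 0.14 at 25 mM and 0.47 ± 0.14 at 100 mM, and by 0.17 (adjusted p = 0.163) and 0.24 (adjusted p = 0.0451) without vehicle 48 h replicate 1, where it was lowest. Dad1, a subunit of the oligosaccharyltransferase, rose in all 4, by 0.38 ± 0.05 at 25 mM and 48 h. Eif2ak3, which encodes PERK, had a difference of -0.34 ± 0.11 at 100 mM and 24 h (adjusted p = 0.0403). At 25 mM and 48 h its difference was -0.39 ± 0.11 (adjusted p = 0.0136), and it was not called in the other comparisons with the vehicle. Of 14 measured genes of ER-associated degradation out of 17 listed, 0 rose and 1 fell at each dose at 24 h, and 1 rose and 2 fell at each dose at 48 h, with the recruiter of the p97 ATPase Ubxn4 lower in all 4, by 0.22 ± 0.06 at 25 mM and 24 h. The call of Ubxn4 at 100 mM and 48 h ended without vehicle 48 h replicate 1 (adjusted p = 0.0636).

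Of the 37 measured genes among 41 further ATF4 targets and eIF2α kinases, 1 rose and 6 fell at 25 mM and 1 rose and 8 fell at 100 mM after 24 h, and 1 rose and 14 fell at 25 mM and 1 rose and 10 fell at 100 mM after 48 h. The shares called lower over all tested probe sets were 7.49%, 6.74%, 10.5% and 8.07%. Their median difference was -0.04, -0.08, -0.15 and -0.15, beside -0.05, -0.05, -0.03 and -0.07 over all tested probe sets. Cth, which makes cysteine from cystathionine, fell in all 4, by 0.65 ± 0.08 at 25 mM and 24 h (adjusted p = 4.03e-07) and 0.51 ± 0.08 at 25 mM and 48 h (adjusted p = 1.89e-05). The cystine importer Slc7a11 fell in all 4 as well, by 0.82 ± 0.11 at 25 mM and 48 h and 0.77 without vehicle 48 h replicate 1. The alanine aminotransferase Gpt2 fell by 0.78 ± 0.08 at 25 mM and 0.63 ± 0.08 at 100 mM after 24 h, and was called lower at both doses at 48 h. Mthfd1l had the largest called fall of this list at 100 mM and 48 h, at -0.78 ± 0.17 (adjusted p = 0.00136). At 25 mM and 48 h its difference was -0.55 ± 0.17 (adjusted p = 0.0211). The gene that rose in each comparison was Cebpb, a transcription factor that pairs with ATF4, by 0.44 ± 0.07 at 25 mM and 24 h.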

How the data were processed

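Per the labels' protocols, RNA of each well was labelled and hybridised to 1 array. The authors deposited a linear signal intensity for each probe set. MAS5 is the tool in the submitters' processing notes, with a version not given in the sources used here. All arrays had been brought to nearly the same trimmed mean, so a change in total mRNA cannot be seen.

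Of 31099 probe sets, 57 controls were dropped. A constant of 16 was added to the intensities before log2, which understates changes of dim genes. Testing kept the 18625 probe sets whose mean reached the 40th percentile. Symbols of the platform annotation, some of them old, were updated by Entrez ID (GRCr8, names only). Probes of related genes can bind each other's transcripts. One limma model (version 3.58.1, R 4.3.3) held all 6 groups, with 24 residual degrees of freedom, a variance trend and Benjamini-Hochberg adjustment within each comparison. The code was tested on simulated data.

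Members, lists and alternatives were chosen with earlier results of these data known. By rule, the text gives values for members called in at least 2 vehicle comparisons or between the vehicle times. The largest difference per role group was given too, and Hspa5, Atf4, Ddit3, Xbp1 and Asns in any case. For the longer lists the rule named up to 3 called genes per direction and comparison, and the text gives only some of these. Other members with values were added after they were seen.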

Additional observations from a re-analysis of the deposited data

Results flagged for a closer look

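Of 192 sets of 5 arrays (32 genes in 6 groups), 23 held an array that passed Dixon's test, which flags some sets by chance, and 9 of the 23 lay on vehicle 48 h replicate 1. On that array Chac1 was at 12.54, Asns at 13.09, Psat1 at 13.81, Phgdh at 13.29 and Atf4 at 15.04, each far above the other 4 arrays. Hsp90b1 at 14.67, Dnajb9 at 13.55, Edem1 at 15.33 and Ppp1r15a at 10.81 were each far below them. The cause was not tested.

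DINP 100 mM 48 h replicate 5 held 5 such values: Dnajb9 at 13.71 was above its group, and Sdf2l1 at 10.65, Trib3 at 11.38, Sesn2 at 9.20 and Shmt2 at 15.36 were below. At 48 h and 25 mM, Dnajc3 was low in replicate 2 at 13.57 and Pdia4 in replicate 1 at 12.80. At 24 h, Sdf2l1 was high in replicate 4 of both DINP groups, at 11.49 with 25 mM and 11.51 with 100 mM, and Atf4 was low in replicate 1 at 25 mM, at 14.38. Among vehicle 24 h arrays, Hspa5 was low in replicate 5 at 15.53 and Psat1 in replicate 4 at 12.99, while Manf was high in replicate 3 at 14.63 and Pdia3 in replicate 5 at 14.91.

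The effect of 25 mM DINP on Nupr1 differed between the times by limma's interaction term, at -0.52 for 48 h minus 24 h.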

How the results depend on the processing

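The titles number the arrays across all groups and give no replicate numbers within them. Runs of consecutive array numbers, 1 array per group, were fitted as a block, although deviations of arrays of the same run were hardly correlated (mean 0.012, between -0.061 and 0.099, over 75 pairs). With that block 6 genes were called at 25 mM and 24 h, 5 at 100 mM and 24 h, 15 at 25 mM and 48 h and 12 at 100 mM and 48 h. It added calls of Dnajb9 at 25 mM and 24 h (adjusted p = 0.0383) and of Atf3 at 100 mM and 24 h (adjusted p = 0.0407) and at 100 mM and 48 h (adjusted p = 0.0140), and changed no other call of the 32 genes. Over all alternatives, 0 differences of single genes that were called turned sign. With quantile normalisation 1 gene rose and 6 fell at 25 mM and 24 h, 0 rose and 6 fell at 100 mM and 24 h, and the chaperone median was -0.14 at 100 mM and 24 h and -0.12 at 100 mM and 48 h. With each array centred on its median, 5 were called at 100 mM and 48 h (4 lower), 4 between the vehicle times (2 higher, 2 lower), and the chaperone median was 0.034 and 0.0038 at 24 h for 25 and 100 mM, 0.052 at 100 mM and 48 h, and 0.18 between the doses at 48 h, where that of the amino acid genes was 0.15. Taking each gene's median over its probe sets gave 0.042 for the chaperones there. With the compared groups alone, 7 were called at 100 mM and 48 h (6 lower), 2 rose at 100 mM and 24 h and 2 between the vehicle times. The 60th percentile filter and array weights also gave 2 higher at 100 mM and 24 h. The difference of the 100 mM effect had 1 call, lower, with a constant of 64, quantile normalisation, the 60th percentile filter or medians over probe sets.

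Centring moved the median over all tested probe sets at 100 mM and 48 h to 0.030, against -0.074 without it, and between the doses at 48 h to 0.089, against -0.016. Among all called probe sets the share of higher ones was then 65.2% and 70.8% at 24 h for 25 and 100 mM and 75.1% at 100 mM and 48 h, against 43.9%, 45.1% and 44.6%. The number of probe sets whose 25 mM effect differed between the times was 13 with centring, 30 with no filter and 66 with the 60th percentile filter, against 45, and for 100 mM 24 with quantile normalisation, 25 with array weights and 18 with that filter, against 12, or 8 with no variance trend.

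Leaving out 1 array at a time gave 4 to 7 genes called at 25 mM and 24 h (1 to 3 higher, 2 to 4 lower), 3 to 6 at 100 mM and 24 h (0 to 2 higher, 3 to 5 lower), 13 to 15 at 25 mM and 48 h, 6 to 12 at 100 mM and 48 h (5 to 11 lower), 6 to 11 between the vehicle times (2 to 4 higher, 4 to 7 lower), 1 to 2 for the difference of the 25 mM effect and 0 to 1 for that of 100 mM. Chaperone medians ran from -0.099 to -0.021 and -0.118 to -0.065 at 24 h, -0.118 to -0.085 and -0.088 to -0.040 at 48 h for 25 and 100 mM, and -0.216 to -0.149 between the vehicle times. Those of the amino acid genes ran from 0.063 to 0.223, 0.040 to 0.133, -0.319 to -0.141, -0.229 to -0.052 and 0.053 to 0.131. With 5 arrays a group, small changes may be missed.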
